A study of Mus musculus with 6 samples.

Results

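The genes described here encode the inhibins, the activins, their binding proteins and receptors, and anti-Müllerian hormone. The set was written down by symbol and has 10 members, Inha, Inhba, Inhbb, Fst, Fstl3, Acvr1, Acvr1b, Acvr2a, Acvr2b and Amh. Each member was looked up in the authors' deposited sheet of comparisons, which has 25697 rows for 18138 gene symbols. Of the 10 members, 8 had a row there, with 1 probe each, and Inhbb and Fstl3 were not analysed here. Of the 8 probes, 6 lay above the median probe in mean signal and entered the test.

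Inhibins and activins are dimeric hormones of the TGF-beta family that share beta subunits, so that an alpha subunit paired with a beta subunit gives inhibin and paired beta subunits give activin. Activin binds a type II receptor, which recruits and phosphorylates a type I receptor, and the signal is passed on by SMAD proteins. Inhibin and follistatin oppose activin, inhibin by occupying the type II receptor and follistatin by binding the ligand. In the ovary, activin acts on the formation and early growth of follicles, and granulosa cells of growing follicles secrete AMH, which restrains the recruitment of primordial follicles.

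The arrays came from whole ovaries of Swiss mice taken at postnatal day 3 to 4 and kept on culture inserts for 96 h. The 3MC group had 5 µM 3-methylcholanthrene, a polycyclic hydrocarbon and ligand of the aryl hydrocarbon receptor (AhR), at a dose that the submitters chose for overt toxicity. The DMSO group had the 0.01% vehicle. All ovaries shared a DMEM/F12 medium with serum, albumin, ascorbic acid, insulin, transferrin, selenium, glutamine and antibiotics, to which stem cell factor, leukemia inhibitory factor and basic fibroblast growth factor had been added. Each group had 3 arrays (Illumina Mouse Ref-8 v2), and the comparison asks which transcripts differ after exposure. Nothing in the labels tells if the 3 arrays of a group stand for different cultures or animals, nor how many ovaries went into each. The p-values therefore rest on the spread among these arrays, part or all of which may be technical. In the fit, each probe's spread was drawn mostly toward that of all probes tested, with 30.8 prior against 4 residual degrees of freedom. A standard error can thus differ from the one a probe's own arrays would give.

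Values are log2 signals after background correction and quantile normalization, and changes are 3MC minus DMSO on that scale, from limma with Benjamini-Hochberg adjustment over all 12848 probes tested and a threshold of 0.05. The median scanner signal was 98.1 to 124.5 in 3MC arrays and 107.8 to 109.1 in DMSO arrays. Arrays of a group correlated at 0.995 to 0.996 and arrays of different groups at 0.978 to 0.979. Cdkn1a, the p53 target that encodes the cell cycle inhibitor p21, was higher in 3MC ovaries at all 3 of its probes. The probe of largest change averaged 12.41 ± 0.277 in 3MC ovaries and 8.85 ± 0.0979 in DMSO ovaries (SD, n = 3 each). That is an 11.8-fold difference, and the other probes gave 10.35-fold and 6.59-fold. All 15 oocyte markers with a row and 14 of 17 granulosa cell markers passed the signal filter, so the labelled tissue showed its defining cells. Fcer1g, Itgam and Ptprc were the leukocyte markers below it. The number of arrays limits the precision of every value.

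Of the 6 members tested, Inhba and Acvr1 were higher and Acvr2b was lower in 3MC ovaries, and Inha, Fst and Amh did not pass the test. Inhba encodes the beta A subunit of activin A, Acvr1 a type I receptor and Acvr2b a type II receptor, and their differences were 1.25-fold, 1.36-fold and 1.30-fold. Among all probes tested 32.2% passed the same threshold, 15.8% higher and 16.4% lower in 3MC. With that background, 3 members of 6 describe these genes and say nothing about the set. In the same 3 genes every 3MC value lay on one side of every DMSO value, as it did at 42.4% of all probes tested. In bulk RNA, fewer cells of a type and less RNA per cell cannot be told apart.

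The DNA around the transcription starts of those 3 genes is shown because 3MC is a ligand of the AhR, whose dimer with ARNT recognizes the core GCGTG. The windows run from 250 bases before to 50 bases after a start, are from RefSeq (GRCm38.p6), and are written 5′ to 3′ on the gene's strand with the core or its reverse complement CACGC in capitals. The Acvr1 window is chr2:58566779-58567078 on the minus strand, the Acvr2b window chr9:119401928-119402227 on the plus strand, and the Inhba window chr13:16011601-16011900 on the plus strand.
Acvr1: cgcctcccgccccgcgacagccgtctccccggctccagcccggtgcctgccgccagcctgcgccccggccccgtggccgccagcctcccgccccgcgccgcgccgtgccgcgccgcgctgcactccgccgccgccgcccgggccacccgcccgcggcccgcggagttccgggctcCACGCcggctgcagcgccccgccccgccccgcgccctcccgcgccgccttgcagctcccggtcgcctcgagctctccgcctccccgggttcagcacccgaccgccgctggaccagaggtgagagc
Acvr2b: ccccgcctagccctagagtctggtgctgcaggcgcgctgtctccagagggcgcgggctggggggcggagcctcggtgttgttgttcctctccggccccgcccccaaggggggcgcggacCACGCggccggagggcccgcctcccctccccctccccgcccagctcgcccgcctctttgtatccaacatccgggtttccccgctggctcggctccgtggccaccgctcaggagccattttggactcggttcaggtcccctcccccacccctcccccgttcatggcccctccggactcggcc
Inhba: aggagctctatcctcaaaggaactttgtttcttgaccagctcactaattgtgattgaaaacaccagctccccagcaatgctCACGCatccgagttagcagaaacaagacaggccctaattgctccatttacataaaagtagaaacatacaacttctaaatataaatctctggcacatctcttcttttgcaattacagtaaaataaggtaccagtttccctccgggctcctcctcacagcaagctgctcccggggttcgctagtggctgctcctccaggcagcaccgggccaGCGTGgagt
The core lay 75 bases before the Acvr1 start and 131 bases before the Acvr2b start, both times on the opposite strand. Inhba had it 169 bases before the start on the opposite strand and 42 bases after it on the gene's own strand. Of the 8 members with a window in the RefSeq table, 5 held the core on either strand, as did 32.4% of the 32851 windows in the table. These 8 include Inhbb and Fstl3, whose expression was not analysed. Fst and Amh had no window there and were not searched. The longer form TNGCGTG was in 0 of the 8 and in 5.07% of all windows. The other member windows with the core were those of Acvr1b and Acvr2a, which were not tested. A match is a run of letters, and nothing here measured AhR binding.

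Among the ligand subunits, Inha (probe ILMN_1239270, chromosome 1), which encodes the alpha subunit that makes a dimer an inhibin, did not pass the test. Its log2 signals were 11.51, 11.37 and 11.50 in 3MC ovaries and 11.34, 11.41 and 11.46 in DMSO ovaries. The groups overlapped, with the lowest 3MC array between the DMSO arrays. The difference was 0.05 with a standard error of 0.0857 and a 95% interval of -0.12 to 0.23 (limma, adjusted p = 0.693). The sign of this small difference turned under median centring, to -0.078 with an adjusted p of 0.827. The authors' deposited table gave a ratio of 1.04 for Inha and a p-value of 0.771.

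Inhba (probe ILMN_2868220, chromosome 13) had log2 signals of 7.59, 7.71 and 7.53 in 3MC ovaries and 7.45, 7.35 and 7.07 in DMSO ovaries. Every 3MC array was higher than every DMSO array, and the lowest 3MC array stood close above the highest DMSO array. The means were 7.61 ± 0.0936 in 3MC ovaries and 7.29 ± 0.195 in DMSO ovaries (SD, n = 3 each), a log2 difference of 0.32 ± 0.0937 (SE) with a limma adjusted p of 0.00821. The DMSO group was the more spread, with replicate 3 low. Without DMSO replicate 3 the difference was 0.21 and the adjusted p 0.122, and without 3MC replicate 2 it was 0.27 and 0.0567, so the Inhba call rested on each of these arrays. The authors' deposited table gave a ratio of 1.202 for Inhba and a p-value of 0.00357.

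Fst (probe ILMN_1228958, chromosome 13) encodes follistatin, the secreted protein that binds activin and blocks its access to the receptor. The Fst probe had log2 signals of 8.26, 8.23 and 8.10 in 3MC ovaries and 8.41, 8.40 and 8.24 in DMSO ovaries. The 3MC arrays were lower on average, but the highest of them lay above the lowest DMSO array. The difference was -0.15 ± 0.0873 (SE), with a 95% interval of -0.33 to 0.02, and limma's p of 0.0855 became 0.181 after adjustment. The authors' deposited table gave a ratio of 0.907 for Fst and a p-value of 0.0441 with no adjustment stated.

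Amh (probe ILMN_2768691, chromosome 10) encodes the hormone itself. It had log2 signals of 6.75, 6.93 and 6.59 in 3MC ovaries and 6.57, 6.55 and 6.75 in DMSO ovaries. The groups overlapped, and the 3MC arrays spanned almost the whole range. The difference was 0.13 ± 0.0924 (SE) with a 95% interval of -0.06 to 0.32 (limma, adjusted p = 0.297). The scanner signals of Amh were low, 168.9, 131.8 and 111.0 in 3MC ovaries and 127.5, 124.3 and 136.7 in DMSO ovaries. Its mean nonetheless lay above each of the 1160 olfactory receptor probes, whose brightest had a log2 signal of 6.49 and which stand here for a level near background. The authors' deposited table gave a ratio of 1.07 for Amh and a p-value of 0.319.

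**Figure D1:**
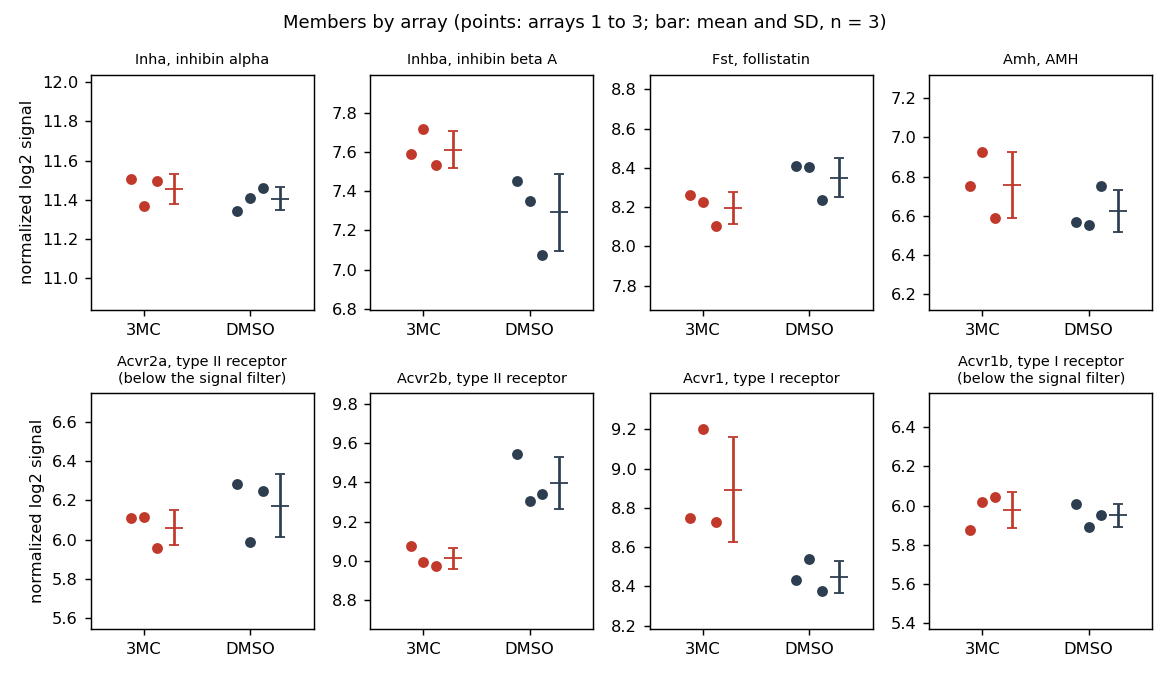
Normalized log2 signal of the 8 member probes on each array, 3MC arrays left of DMSO arrays in each panel, with points for arrays 1 to 3 and bars for the group mean and SD (n = 3). The groups stand apart for Inhba, Acvr1 and Acvr2b, and overlap for Inha, Fst, Amh, Acvr2a and Acvr1b.

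Of the type II receptors, Acvr2b (probe ILMN_1230145, chromosome 9) encodes activin receptor IIB, a high-affinity receptor for activin. Its log2 signals were 9.08, 8.996 and 8.97 in 3MC ovaries and 9.55, 9.30 and 9.34 in DMSO ovaries. Every 3MC array was below every DMSO array, and the 3MC arrays lay close together. The means were 9.01 ± 0.0536 in 3MC ovaries and 9.40 ± 0.131 in DMSO ovaries (SD, n = 3 each), a log2 difference of -0.38 ± 0.088 (SE) with a limma adjusted p of 0.000912. Leaving out each array in turn kept this call, with differences from -0.43 to -0.31 and adjusted p-values up to 0.0158. The authors' deposited table gave a ratio of 0.772 for Acvr2b and a p-value of 0.000276.

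Acvr2a (probe ILMN_2617775, chromosome 2) encodes the other type II receptor of activin and fell below the signal filter, so it was outside the main test. It had log2 signals of 6.11, 6.11 and 5.96 in 3MC ovaries and 6.28, 5.99 and 6.25 in DMSO ovaries. The groups overlapped, and the probe was brighter than 95.2% of the olfactory receptor probes. The authors' deposited table gave a ratio of 0.951 for Acvr2a and a p-value of 0.182. Fitted with no filter on dim probes, Acvr2a was at -0.11 with a limma adjusted p of 0.492.

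Of the type I receptors, Acvr1 (probe ILMN_2660103, chromosome 2) encodes ALK2, which transmits signals of AMH and of bone morphogenetic proteins (BMPs). Its log2 signals were 8.75, 9.20 and 8.73 in 3MC ovaries and 8.43, 8.54 and 8.37 in DMSO ovaries. Every 3MC array was above every DMSO array, and 3MC replicate 2 stood well above the other 3MC arrays. The means were 8.89 ± 0.267 in 3MC ovaries and 8.45 ± 0.0822 in DMSO ovaries (SD, n = 3 each), a log2 difference of 0.44 ± 0.0999 (SE) with a limma adjusted p of 0.0007. Without 3MC replicate 2 the difference shrank to 0.29 and its adjusted p was 0.0252. The authors' deposited table gave a ratio of 1.33 for Acvr1 and a p-value of 0.0182.

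Acvr1b (probe ILMN_2746036, chromosome 15) encodes ALK4, the main type I receptor of activin, and was also below the signal filter. Its log2 signals were 5.87, 6.02 and 6.04 in 3MC ovaries and 6.01, 5.89 and 5.95 in DMSO ovaries. The groups overlapped at a level brighter than only 66.4% of the olfactory receptor probes, so this probe says little about the transcript. The authors' deposited table gave a ratio of 1.01 for Acvr1b and a p-value of 0.618. Fitted with no filter, Acvr1b was at 0.03 with a limma adjusted p of 0.901.

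Over the 6 members tested the median change was 0.09 and the median size of a change 0.24, against -0.0015 and 0.147 over all probes tested. Acvr1 changed by more than 90.5% of the probes tested, Acvr2b by more than 86.7% and Inhba by more than 81.5%, whereas Inha changed by more than only 19.5%. None of the 8 members with a row was among the 537 rows that the authors' deposited table of selected genes holds, nor among the 540 rows of their sheet of 1.5-fold changes. Those sheets hold a small part of the 25697 rows compared, so the absence of 8 genes says little. A further deposited sheet, of 6037 rows, held 2 members, Acvr2b and Inhba. The authors' p-values in it ran up to 0.999, so the rule that selected its rows is unclear.

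**Figure D2:**
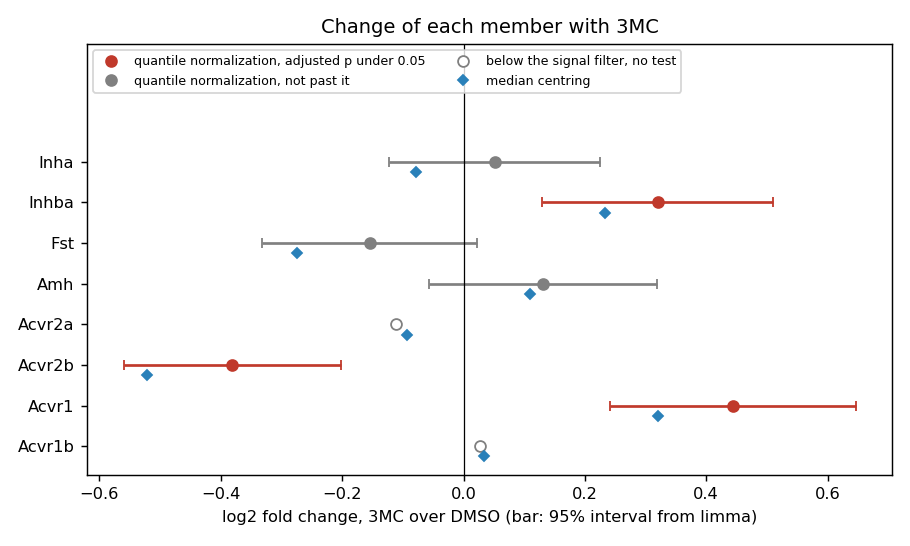
Log2 difference of 3MC from DMSO for the member probes, with circles for the estimate after quantile normalization (red past the threshold, open where not tested), bars for limma's 95% interval and blue diamonds for the estimate after median centring. After quantile normalization, Inhba at 0.32 and Acvr1 at 0.44 lie above 0, Acvr2b at -0.38 lies below it, and the intervals of Inha, Fst and Amh include 0.

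The 3 calls held under cyclic loess and were lost under median centring. Cyclic loess gave 0.45 for Acvr1, 0.31 for Inhba and -0.38 for Acvr2b, with limma adjusted p-values of 0.000707, 0.0114 and 0.000979. When each array was centred on its median in place of quantile normalization, the differences kept their direction at 0.32 for Acvr1, 0.23 for Inhba and -0.52 for Acvr2b, but the limma adjusted p-values were 0.28, 0.451 and 0.0734. Under that scaling 0 of the 6 members passed, 1 of 6 had an unadjusted p below the threshold, and 8.61% of all probes passed. The median change of all probes was -0.08 there and -0.20 when 3MC replicate 1 was also left out, a setting chosen after seeing the data. The calls over all probes split into 2028 higher and 2108 lower in 3MC by quantile normalization, 343 and 763 by median centring, and 568 and 5102 by median centring without 3MC replicate 1. In that last setting Acvr2b and Fst passed, at -0.72 (adjusted p = 3.37e-06) and -0.46 (0.00105), while Acvr1 was at 0.23 (0.133) and Inhba at 0.11 (0.47).

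A shift of a whole array cancels in the difference between members on that array. Of the 15 possible pairs 2 are given, chosen after their values were seen. The log2 signal of Acvr1 minus that of Acvr2b was -0.33, 0.20 and -0.24 in 3MC ovaries and -1.11, -0.77 and -0.96 in DMSO ovaries. All 3MC arrays were higher than all DMSO arrays, by 0.83 on average and by 0.80 on the uncorrected scanner signals. The log2 signal of Fst minus that of Inhba was 0.67, 0.51 and 0.57 in 3MC ovaries and 0.96, 1.06 and 1.16 in DMSO ovaries. All 3MC arrays were lower, by -0.47 on average and by -0.45 on the scanner signals. The 2-sided exact permutation p was 0.1 for either pair, the smallest that 3 arrays against 3 allow. No pair can pass the threshold at this size, and the groups did not overlap in 9 of the 15 pairs. The pairs reuse the same genes, and single probes stood apart at 42.4% of all tested. No share over pairs of other probes was taken, so the count of 9 says nothing about the set. The values describe these arrays and do not tell which gene of a pair changed.

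**Figure D3:**
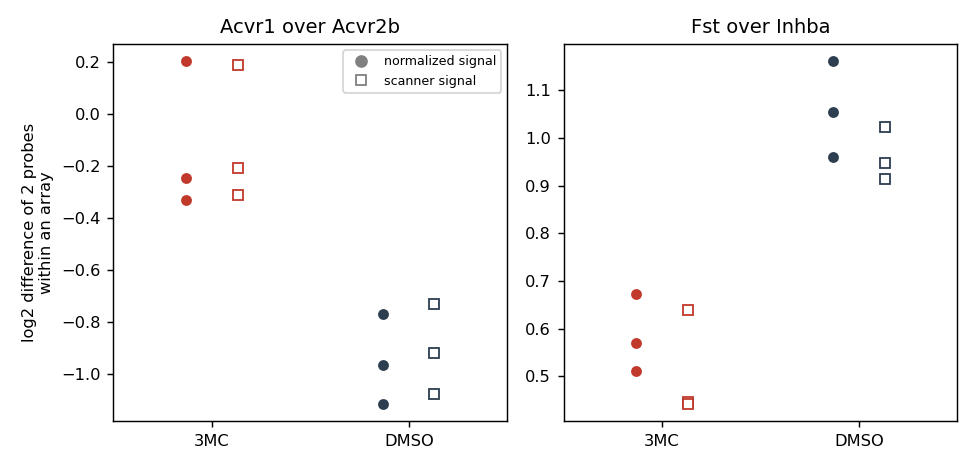
Difference in log2 signal between members on the same array, for Acvr1 minus Acvr2b and for Fst minus Inhba, with 3MC arrays left of DMSO arrays, filled circles for normalized signals and open squares for scanner signals. The groups do not overlap in either panel, and the lowest 3MC value of Acvr1 minus Acvr2b, -0.33, lies above the highest DMSO value, -0.77.

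Other genes of the activin, inhibin and AMH pathways were taken from a list of 49 symbols, of which 42 had a row and 25 passed the signal filter. Of these 25, 10 were higher in 3MC ovaries, 4 were lower and 11 did not pass, with a median change of 0.10. Among all probes tested, 15.8% were higher and 16.4% lower, with a median change of -0.0015. The list was not tested against that background. Where a gene had several probes, the brightest stands for it, and the others are given where they differed in their call.

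Among 8 receptors and co-receptors tested, 4 were higher and 2 lower in 3MC ovaries. Amhr2, the specific type II receptor of AMH, had log2 signals of 11.79, 11.70 and 11.63 in 3MC ovaries and 12.18, 12.05 and 12.10 in DMSO ovaries. All 3MC arrays lay below all DMSO arrays, and the difference was -0.41 ± 0.086 (SE, limma adjusted p = 0.000344). Its other probes read -0.40, which passed, and -0.24, which did not (adjusted p = 0.0707). Of the type I receptors that AMH and BMPs share, Bmpr1a was higher, by 0.44 (adjusted p = 0.000556), and Bmpr1b lower, at -0.31 (0.00474). The TGF-beta receptors Tgfbr1 and Tgfbr2 were higher by 0.59 and 0.49 (1.12e-06 and 3.37e-05), and endoglin, Eng, a co-receptor prominent in endothelium, by 0.37 (0.00157). Betaglycan, Tgfbr3, the co-receptor of inhibin, gave 0.03 at its brighter probe (adjusted p = 0.841) and 0.42 at the other (0.00114), so its probes disagreed.

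Both oocyte ligands tested were higher. Bmp15 and Gdf9, which oocytes secrete to act on granulosa cells, differed by 0.44 (limma adjusted p = 0.000271) and 0.25 (0.0303). The Gdf9 call was lost when any of 4 arrays was left out, with adjusted p-values up to 0.162: 3MC replicates 1 and 2 and DMSO replicates 1 and 3. It was also lost under cyclic loess (0.0776). Of 7 signal transducers, 2 were higher, and the other 5, Smad2, Smad3, Smad5, Smad6 and Smurf1, did not pass. Skil, the SMAD repressor SnoN, differed by 0.64 (adjusted p = 7.85e-06). Smad1, which carries AMH and BMP signals, differed by 0.46 (0.000137), with 0.21 at its other probe (0.0609). Of 2 extracellular regulators, Fstl1, a relative of follistatin, was lower at -0.24 (0.0364), a call lost without 3MC replicate 1 or 3 or DMSO replicate 2 or 3 (adjusted p up to 0.185) and under cyclic loess (0.0606). Furin, a protease that cuts precursors of this family, did not pass.

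Among 6 regulators of granulosa cells and of AMH, Cyp19a1 and Sox9 were higher and Nr5a1 lower. Cyp19a1, aromatase, had log2 signals of 7.11, 6.98 and 6.70 in 3MC ovaries and 6.16, 6.26 and 6.12 in DMSO ovaries. All DMSO arrays lay below the median probe, at 6.28, and close to the 95th percentile of the olfactory receptor probes, at 6.11. The Cyp19a1 probe thus passed the signal filter only through its 3MC arrays, and no fold is given for it, though it is 1 of the 10 counted as higher. Sox9, an activator of Amh in the testis, differed by 0.28 (0.0148), and Nr5a1, a nuclear receptor that binds the Amh promoter, by -0.25 (0.0224). The Sox9 call was lost without DMSO replicate 1 or 3 (adjusted p up to 0.102), and that of Nr5a1 without DMSO replicate 2 or 3 (up to 0.0939) and on the deposited log2 values (0.0573). The other Nr5a1 probe read -0.20 (adjusted p = 0.091). Gata4, Gata6 and Foxl2, transcription factors of granulosa cells, did not pass. Under median centring 3 genes of the list passed, 2 higher and 1 lower in 3MC, all of them among the 14 above, namely Cyp19a1, Skil (limma adjusted p = 0.0408) and Amhr2 (0.0408). Without 3MC replicate 1 in that setting the list split into 4 higher and 8 lower, against 9 and 3 when that array was left out under quantile normalization.

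**Figure D4:**
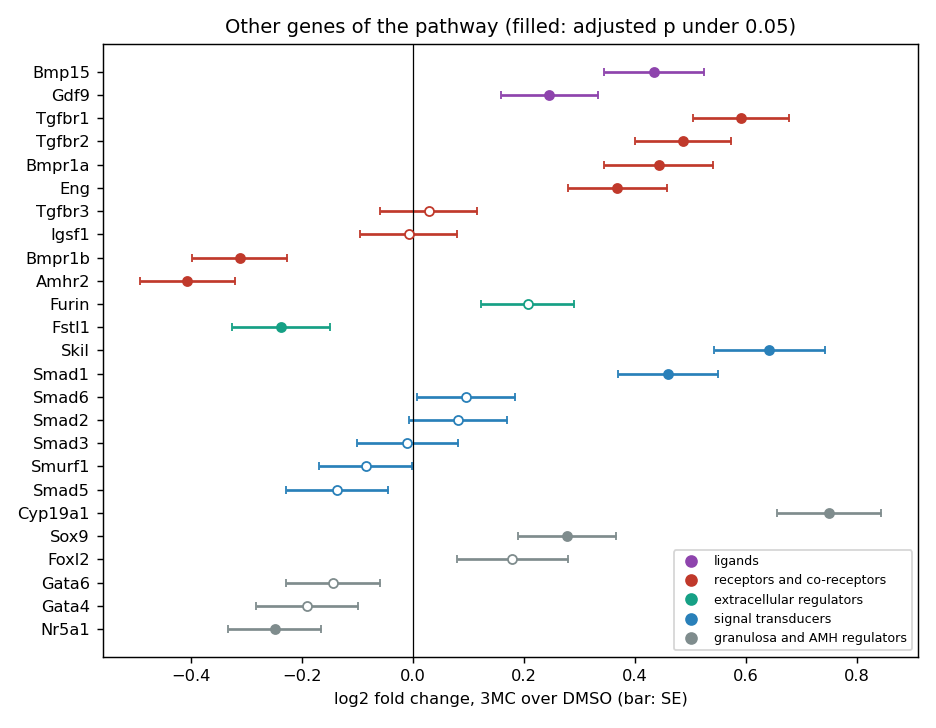
Log2 difference of 3MC from DMSO for the pathway genes that passed the signal filter, grouped by role, with points for the estimate, filled where the adjusted p passed the threshold, and bars for 1 standard error. Skil at 0.64 and Tgfbr1 at 0.59 lie far to the right and Amhr2 at -0.41 far to the left; Cyp19a1, right of them, passed the signal filter only through its 3MC arrays.

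Markers of the cell types in the ovary moved with the treatment beside these genes. Their counts stand against 15.8% higher and 16.4% lower among all probes tested, and no list was tested against that background. All 14 leukocyte markers tested were lower in 3MC ovaries, with a median change of -1.55 and a summed linear signal of 4784 to 5152 in 3MC arrays and 14330 to 14840 in DMSO arrays. Coro1a at -2.48, Cd52 at -2.09 and H2-Ab1 at -1.97 had the smallest adjusted p-values there. Tyrobp and Csf1r, counted among the 14, had 3MC means below the median probe and passed the signal filter through their DMSO arrays. Granulosa cells are the known source of inhibin, AMH and Amhr2 in the ovary, and of their 14 markers tested 4 were higher, 3 lower and 7 did not pass, with a median of 0.03. Cyp19a1, counted among the 4, passed the signal filter only through its 3MC arrays. Of 7 erythroid markers with a row 1 was tested and did not pass. The summed granulosa signal was 7029 to 7372 in 3MC arrays and 7401 to 8050 in DMSO arrays. Amhr2, with means of 11.71 in 3MC and 12.11 in DMSO arrays, is the brightest of the 14 markers and weighs most in that sum. No sum was taken without Amhr2, so the lower sum in 3MC arrays does not describe the other granulosa markers. Of the pathway genes above, 8 are also in these cell type lists. Serpine2, a protease inhibitor, was 2.69-fold higher and Lgr5 2.01-fold lower in 3MC ovaries, so granulosa markers moved in both directions.

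Of 15 oocyte markers 5 were higher, 5 lower and 5 did not pass, with Oosp1 at 1.01, Zp3 at 0.43 and Figla at -0.50. Their summed signal was 37560 to 38600 in 3MC arrays and 35610 to 37310 in DMSO arrays. Of 9 theca, interstitial and stroma markers 5 were higher and 1 lower, led by Col3a1 at 0.99, Tcf21 at 0.69 and Col1a2 at 0.57, with sums of 19450 to 20470 in 3MC arrays and 19090 to 19220 in DMSO arrays. Star, counted among the 5, had a DMSO mean of 6.27, below the median probe at 6.28. It passed the signal filter through its 3MC arrays. Of 6 endothelial markers Eng was higher and Esam lower, at -0.41, and Emcn at 0.17 did not pass. Of 7 surface epithelium markers 2 were higher and 2 lower, with Upk1b at 1.38, Krt19 at -0.62 and Lgals7 at -0.40. Under median centring all 14 leukocyte markers still passed as lower, while 2 granulosa markers were higher and 2 lower, 1 oocyte marker higher and 3 lower, and 2 stroma markers higher and 1 lower. Cyp19a1, with the limit given above, was among the granulosa markers that were higher there. The part of any of these cell types in the changes of Inhba, Acvr1, Acvr2b or Amhr2 was not tested.

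Genes whose signals followed a member most closely over the 6 arrays were ranked by the root mean square distance of log2 signals, each centred on its own mean. Nearest to Acvr1 were Eed at 0.0664, Mrps15 at 0.0709 and Ppp6r3 at 0.0795, and 15 probes lay within 0.1. Nearest to Acvr2b were Gpd2 at 0.0213, Ndufa7 at 0.0299 and Zscan5b at 0.0331. Of the 12848 probes tested 411 lay within 0.1 of Acvr2b, so its pattern was not particular to it. These distances describe 6 arrays of 2 conditions.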

How the data were processed

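Total RNA of 6 cultured ovary samples was hybridised to Illumina beadchips. The deposited scanner table holds a linear intensity per probe, and the authors' value table holds log2 signals; lumi is named in the submitters' processing notes, and the settings used with it are not given in the sources used here. In addition, the authors' deposited comparison sheets give a ratio of group means and a p-value per row. Those rows carry no probe name. They were linked to probes by their array address, in whose order the scanner table runs, and the link was checked by the ratio: all 25697 rows matched the deposited log2 values to 6 significant digits, and 0 did so when shifted by 1 place. By the ratio alone 6 of the 8 member rows have a single probe, and Inha and Acvr1b were settled by the address. The plan had been to link by the ratio within a tolerance, which is given as an alternative. RefSeq held the accession of 23739 rows, and updating symbols by accession changed 3902 of them. Members were taken by the symbol printed in the authors' sheet.

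Intensities were corrected with normexp (offset 50), logged and quantile normalized. Neither detection p-values nor control probes were used. Probes with a mean above the median probe were kept, 12848 in all, and fitted with lmFit and eBayes (limma 3.58.1, R 4.3.3) with group as the only term, on 4 residual and 30.8 prior degrees of freedom. Named genes were all members, the pathway genes past the threshold, the 3 markers per cell type of smallest adjusted p, the 3 genes most like each of the 2 members of largest change, and Cdkn1a; others were chosen after their values were seen. The members and lists were chosen with earlier results of these data known. Alternatives were other scalings, filters, links, the replicate number as a block and leaving out each array. Same-numbered arrays of the groups deviated with correlations of -0.08, -0.10 and 0.08, and arrays of unlike number with -0.07 to 0.14. No shared deviation by number was seen, which does not tell if the arrays were paired in culture or handling.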

Additional observations from a re-analysis of the deposited data

How the results depend on the processing

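Median centring in place of quantile normalization left 1106 probes past the threshold (343 higher, 763 lower in 3MC), against 4136 (2028 higher, 2108 lower), and 0 member probes, 3 pathway genes and 29 cell type markers, against 3, 14 and 44. Acvr1 was then at 0.32, Inhba at 0.23 and Acvr2b at -0.52, none past the threshold, and Inha turned to -0.078. With 3MC replicate 1 also left out, a setting chosen after seeing the data, Inha was at -0.22, Inhba at 0.11 and Acvr1 at 0.23, none past the threshold, Acvr1b was at 0.15, and Acvr2b and Fst passed at -0.72 and -0.46. The cause was not tested. Keeping only probes above the 0.75 quantile of signal, which tests fewer, left 2512 probes and 27 markers. Linking rows by the ratio within 5e-05 (chosen after seeing the data) or within 0.0001 left 7 pathway genes each, and the link within 0.0001 left 29 markers, since fewer rows link. Linking by the ratio to 6 digits alone, also chosen after seeing the data, left the counts of 3, 14 and 44. The 44 markers include Cga, a pituitary gonadotroph gene, Cyp19a1 and Star, which passed the signal filter through their 3MC arrays. Cga and Cyp19a1 are also among those that passed under median centring.

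Leaving out each array in turn gave 3339 to 3607 probes, 2 to 3 member probes, 10 to 14 pathway genes and 38 to 44 markers. The log2 differences ranged from 0.29 to 0.53 for Acvr1, from 0.21 to 0.40 for Inhba, from -0.43 to -0.31 for Acvr2b, from 0.02 to 0.09 for Inha, from -0.21 to -0.11 for Fst, from 0.05 to 0.22 for Amh, from -0.0042 to 0.08 for Acvr1b and from -0.20 to -0.06 for Acvr2a. With the replicate number as a block, 3986 probes, 3 member probes, 14 pathway genes and 44 markers passed, so the block changed no such count by over 1.5 times. The Acvr1b and Acvr2a probes lie near the level of olfactory receptor probes.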

Other observations

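Pituitary gonadotroph genes, which inhibins and activins govern in the animal, were listed as cells that an ovary should lack. Fshb, Gnrhr and Lhb lay below the signal filter. Cga, the alpha subunit shared by the pituitary glycoprotein hormones, had log2 signals of 6.47, 6.79 and 6.62 in 3MC ovaries and 5.99, 6.09 and 6.05 in DMSO ovaries. The DMSO arrays lay below the 95th percentile of the olfactory receptor probes, at 6.11, so the probe passed the signal filter only through its 3MC arrays and no fold is given.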
